A study of Mus musculus with 16 samples.

Results

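The genes described here are 10 genes of the brain endothelium and the blood-brain barrier, Cldn5, Vwf, Pecam1, Cdh5, Flt1, Tek, Slco1a4, Slc2a1, Abcb1a and Mfsd2a. They were picked by gene name, and all 10 were found among the 37583 genes of the deposited files. RNA of frontal cortex and of cerebellum was sequenced from 4 wild-type C57BL/6J mice and from 4 C57BL/6J mice with the genotype Slc39a8 A391T (also written A393T), a missense variant of a gene for a metal ion transporter. This gave 4 groups of 4 libraries, wild-type cortex, wild-type cerebellum, A391T cortex and A391T cerebellum, with 1 library per region and mouse. A library is named by its region and mouse, so that CTX445 and CBLM445 are cortex and cerebellum of the same mouse. The study's methods describe wild-type males of 12 weeks, call all mice litter mates on a clonal background, and give no sex or age for the A391T mice apart. Brains were not perfused, so blood stayed in the vessels, and the regions were separated by blunt dissection.

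The endothelial cells of brain capillaries form a barrier between blood and brain tissue. Their tight junctions close the gaps between cells, they form few transport vesicles, and transporters in their membranes bring in nutrients and pump out foreign compounds. The barrier is induced and kept by signals from the surrounding brain, chiefly Wnt ligands acting on beta-catenin in the endothelium, and by contact with pericytes. Of the 10 genes, Cldn5, Cdh5 and Pecam1 encode junction and adhesion proteins, Flt1 and Tek encode receptors for growth factors, Slc2a1, Slco1a4, Abcb1a and Mfsd2a encode transporters, and Vwf encodes a secreted clotting protein. Endothelial cells are a minor part of brain tissue, and in bulk RNA fewer endothelial cells and less RNA per endothelial cell cannot be told apart.

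The authors deposited whole-number counts of reads per gene, made without regard to strand, with 20813432 to 30497206 counts on genes per library and a median of 24488842. The 10 genes had from 284 to 4334 counts per library before any scaling. Levels are given as TPM, the count per unit of gene length as a share of the sum over all genes of the library. The region labels fitted the neuronal genes, with Gabra6, a cerebellar granule cell gene, at 0.387 TPM in wild-type cortex and 679 TPM in wild-type cerebellum on average, and Pcp2, a Purkinje cell gene, at 1.08 and 804 TPM. Slc39a8 itself ran from 1.63 to 2.75 TPM in wild-type cortex and from 1.98 to 2.79 TPM in A391T cortex, and from 2.46 to 3.16 and from 2.39 to 2.79 TPM in cerebellum. A count per gene cannot show the variant.

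Some libraries need naming before the results. The authors also deposited a table of RPKM values, and 8 of its 16 columns match a count file with another name. What the count files name CTX447, CTX448, CBLM447 and CBLM448, all wild-type, stands in the table as CTX461, CTX462, CBLM461 and CBLM462, all A391T, and the reverse. The wild-type mice of CTX479 and CTX480 and the A391T mice of CTX445 and CTX446 are named alike in both sources. The count files' names are used here, and beside the genotype results the values under the table's names are given. Under the table's names Slc39a8 did not overlap between genotypes, with 1.63 to 2.38 TPM in wild-type and 2.52 to 2.79 TPM in A391T cortex, and 2.39 to 2.61 and 2.70 to 3.16 TPM in cerebellum. Its log2 fold change, A391T over wild type, was then 0.47 in cortex and 0.27 in cerebellum (adjusted p of 0.88 and 0.55 by edgeR), against 0.17 and -0.03 under the count files' names. Under the table's names 0.0733% of 15011 genes did not overlap in both regions with the same direction. Which set of names is right was not tested. The pairing of cortex with cerebellum of a mouse is the same under both sets of names. The A391T cerebellum library CBLM445 stood apart, with an SD of 0.413 across genes for its log2 deviation from its group mean, against 0.192 to 0.306 in the other 15 libraries.

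The levels of the 10 genes kept nearly the same order in both regions and both genotypes. Slc2a1, the glucose transporter of the barrier, was highest, with a mean of 164 TPM over the 16 libraries. Cldn5, the main claudin of brain endothelial tight junctions, followed with 128 TPM, and lay below Slc2a1 in 13 of the 16 libraries. Next came Slco1a4, a transporter of organic anions, with 51.1 TPM, and Mfsd2a, a transporter of lipids that carry docosahexaenoic acid, with 36.2 TPM. Flt1, a receptor for vascular endothelial growth factor, had 27.5 TPM. It lay below Mfsd2a in 8 of 8 cortex but only 5 of 8 cerebellum libraries, so the order of this pair depended on the region. Abcb1a, an efflux pump for drugs and other foreign compounds, had 24.3 TPM. Pecam1, an adhesion molecule between endothelial cells, had 18.5 TPM, and Cdh5, the cadherin of endothelial adherens junctions, had 17.7 TPM. Those neighbours could not be ordered, since Pecam1 was above Cdh5 in 7 of the 16 libraries. Tek, the receptor for angiopoietins, had 14.3 TPM, and Vwf, the von Willebrand factor that binds platelets, was lowest in all 16 libraries with a mean of 6.67 TPM. The order was the same in all 16 libraries for Cldn5 above Slco1a4, for Slco1a4 above Mfsd2a and for Tek above Vwf.

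**Figure D1:**
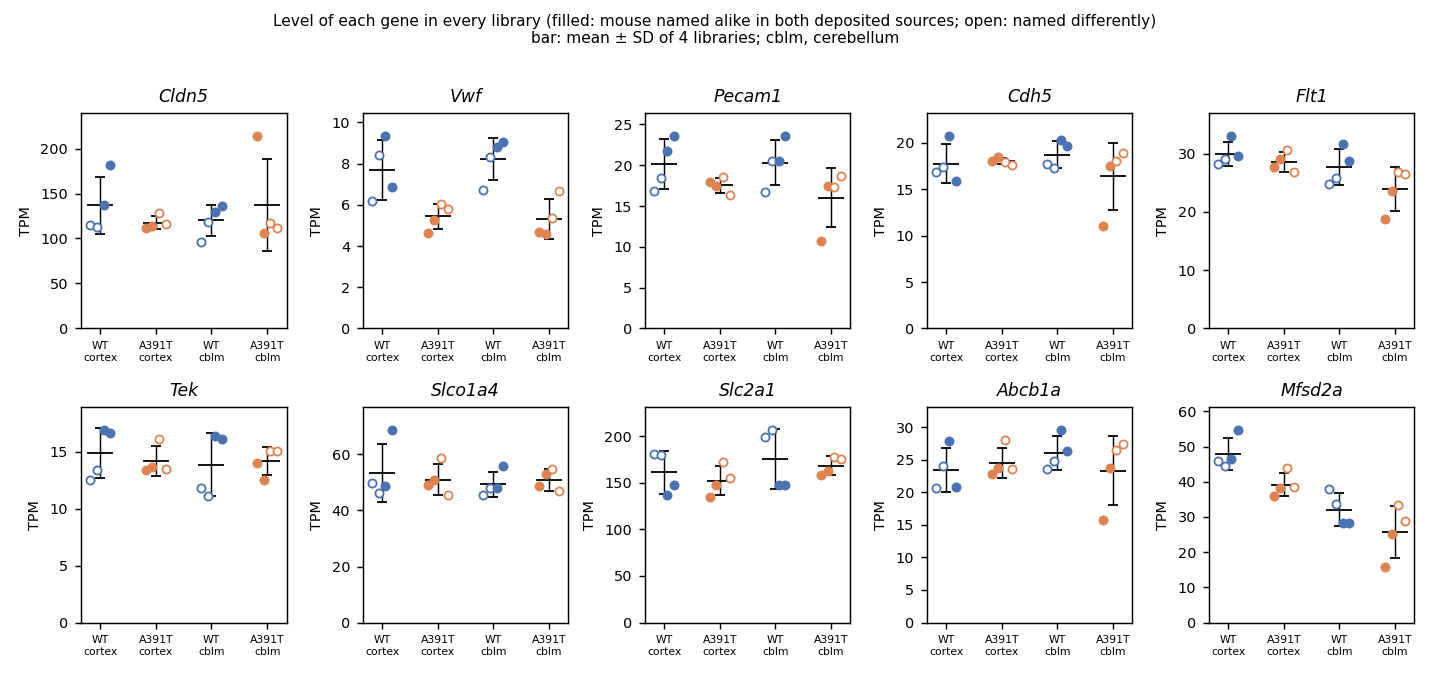
Each panel plots the level of 1 gene in TPM on a linear axis from 0, with 1 point per library, in the 4 groups of 4 libraries, and a bar for the mean ± SD. Mfsd2a is lower in cerebellum (cblm) than in cortex in both genotypes, Vwf is lower in A391T than in wild type (WT) libraries under these names, and CBLM445, an A391T cerebellum library, reaches 214 TPM for Cldn5.

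Together the 10 genes summed to 513 ± 35.5 TPM in wild-type cortex (SD, n = 4) and to 492 ± 16.3 TPM in wild-type cerebellum (SD, n = 4). In A391T mice the cortex sum was 469 ± 36.3 TPM and the cerebellum sum 482 ± 27.4 TPM (SD, n = 4 each). The groups overlapped, with single libraries from 436 to 566 TPM.

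Cerebellum was compared with cortex within each genotype, to see which barrier genes differ between regions. In both genotypes Mfsd2a and Flt1 were lower in cerebellum, and no member was called higher there. The 2 of 10 genes called in wild-type mice stand against 67.8% of the 16040 genes tested (edgeR's quasi-likelihood test, Benjamini-Hochberg adjusted p under 0.05), of which those lower in cerebellum made up 33.1% of genes tested. The 2 of 10 called in A391T mice stand against 62.8% of 16005 genes, with 31.3% called lower in cerebellum. No member also passed a 2-fold change, in either genotype, where 24.7% of genes passed both criteria in wild-type mice and 24.7% in A391T mice. The median log2 fold change of the 10 genes, cerebellum over cortex, was -0.20 in wild-type and -0.16 in A391T mice, with a median of 0.02 and 0.03 over all genes tested. Their median size without sign was 0.20 and 0.17, against 0.46 and 0.45 for all genes. With library totals instead of the TMM factors, which correct for the makeup of the library, the median of all genes moved to 0.14 and 0.16. The calls in A391T mice were then 6507 higher and 4175 lower in cerebellum, against 5051 and 5005 with TMM.

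**Figure D2:**
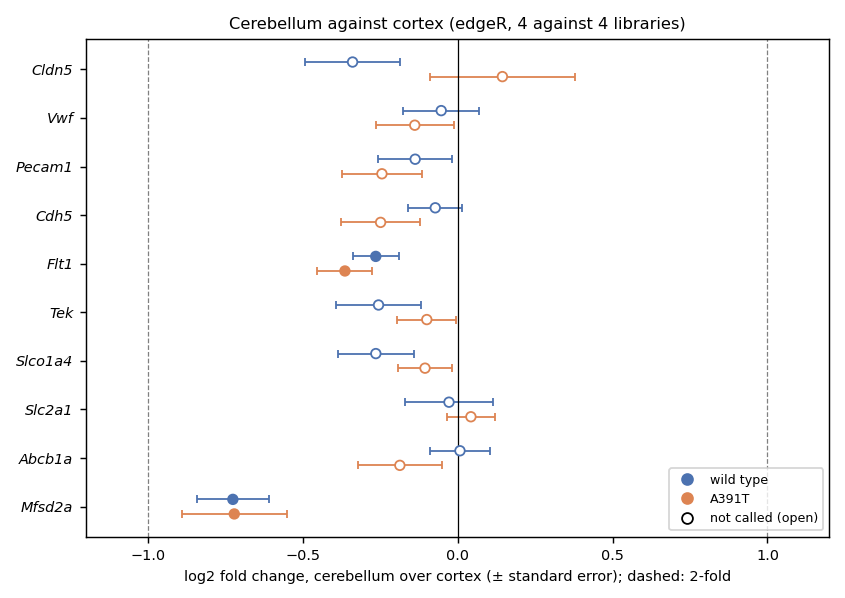
Points give the log2 fold change of each gene, cerebellum over cortex, in wild type and A391T mice, with bars for ± 1 standard error, filled where the adjusted p is under 0.05. Only Mfsd2a and Flt1 are filled, all points lie between the dashed lines of a 2-fold change, and Cldn5 has opposite signs in the 2 genotypes, both open.

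Mfsd2a (ENSMUSG00000028655; NCBIM37 chromosome 4, 122624093 to 122638431, minus strand) had the largest region difference of the 10 genes. Its product takes up lysophosphatidylcholine from blood and is known to hold down vesicle transport across the endothelium. It measured 45.8, 44.5, 46.3 and 54.7 TPM in the wild-type cortex libraries CTX447, CTX448, CTX479 and CTX480, and 37.9, 33.8, 28.2 and 28.4 TPM in CBLM447, CBLM448, CBLM479 and CBLM480, the cerebellum of those mice. It measured 36.1, 38.3, 44.0 and 38.5 TPM in the A391T cortex libraries CTX445, CTX446, CTX461 and CTX462, and 15.8, 25.0, 33.3 and 28.9 TPM in CBLM445, CBLM446, CBLM461 and CBLM462. Further values by library keep this order of mice. Every cerebellum library lay below every cortex library of its genotype, and cerebellum was below cortex in 8 of 8 mice. Cerebellum over cortex came to -0.73 on the log2 scale (standard error 0.12, adjusted p = 0.00019 by edgeR's quasi-likelihood test) in wild-type and -0.72 (standard error 0.17, adjusted p = 0.0040) in A391T mice. The call held without CBLM445, which had the lowest level.

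Flt1 (ENSMUSG00000029648; chromosome 5, 148373180 to 148537587, minus strand) encodes a receptor that binds VEGF-A and whose soluble form acts as a decoy. In wild-type cortex its levels were 28.3, 29.0, 33.0 and 29.6 TPM, and in wild-type cerebellum 24.8, 25.8, 31.6 and 28.7 TPM. In A391T mice they were 27.7, 29.0, 30.6 and 26.8 TPM in cortex and 18.7, 23.5, 26.9 and 26.5 TPM in cerebellum. The groups overlapped, but within each of the 8 mice the cerebellum was lower. On the log2 scale the difference was -0.26 (standard error 0.08, adjusted p = 0.0087 by edgeR's quasi-likelihood test) in wild-type and -0.36 (standard error 0.09, adjusted p = 0.0049) in A391T mice. Scaled by library totals, neither call held, with adjusted p = 0.11 in wild-type and 0.052 in A391T mice by edgeR. With only the mice named alike, 2 cortex against 2 cerebellum libraries, wild-type Flt1 was at -0.22 with an adjusted p of 0.14 by edgeR.

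Cortex and cerebellum came from the same mice, and a fit with the mouse as a block raised the count in wild-type mice from 2 to 5 of 10, beside 65.9% of the 16040 genes tested that were called in that fit. The genes added were Cldn5 (log2 fold change -0.32, adjusted p = 0.019 by edgeR with the block), Slco1a4 (-0.25, adjusted p = 0.029) and Tek (-0.26, adjusted p = 0.014), all lower in cerebellum. In A391T mice the block left the count at 2. Leaving out CTX448 raised the wild-type count to 4, with Cldn5 and Slco1a4 added, beside 65.6% of the 16269 genes tested in that fit.

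Among the junction genes, Cldn5 (ENSMUSG00000041378; chromosome 16, 18776940 to 18778353, plus strand, a gene of 1 exon) measured 115, 113, 137 and 182 TPM in wild-type cortex. In wild-type cerebellum it measured 96.6, 118, 129 and 136 TPM. This was a log2 difference of -0.34 (standard error 0.15, adjusted p = 0.068 by edgeR's quasi-likelihood test), and the groups overlapped. In A391T mice Cldn5 measured 112, 114, 128 and 117 TPM in cortex and 214, 106, 117 and 112 TPM in cerebellum. CBLM445 was high and CTX445 of the same mouse was not. The log2 difference was 0.14 (standard error 0.23, adjusted p = 0.61). Without that library it was -0.21 with an adjusted p of 0.0061, so the direction and the call both rested on 1 library.

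Cdh5 (ENSMUSG00000031871; chromosome 8, 106625525 to 106668402, plus strand) and Pecam1 (ENSMUSG00000020717; chromosome 11, 106515531 to 106611942, minus strand) passed the test in neither genotype. For Cdh5 the mean was 17.7 ± 2.09 TPM in wild-type cortex and 18.7 ± 1.45 TPM in wild-type cerebellum (SD, n = 4 each). In A391T cortex Cdh5 had 18.0 ± 0.345 TPM, and in A391T cerebellum 16.4 ± 3.61 TPM (SD, n = 4 each), the latter with CBLM445 at 11.0 TPM. Pecam1 had 20.2 ± 3.07 TPM in wild-type cortex, 20.3 ± 2.79 TPM in wild-type cerebellum, 17.6 ± 0.912 TPM in A391T cortex and 16.0 ± 3.59 TPM in A391T cerebellum (SD, n = 4 each). The log2 fold changes ran from -0.07 to -0.25, with adjusted p-values from 0.11 to 0.48 by edgeR's quasi-likelihood test. In A391T mice without CBLM445 they were -0.12 for Cdh5 and -0.11 for Pecam1. Their direction depended on the scaling, since Cdh5 was lower in cerebellum in 4 of 8 mice by TPM and in 7 of 8 with TPM rescaled by the TMM factors, and Pecam1 in 4 and 6 of 8.

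Of the transporters, Slc2a1 (ENSMUSG00000028645; chromosome 4, 118781316 to 118809935, plus strand) had log2 fold changes of -0.03 (standard error 0.14) in wild-type and 0.04 (standard error 0.08) in A391T mice, with adjusted p of 0.87 and 0.66 by edgeR. In TPM it was higher in cerebellum in 8 of 8 mice, by a log2 ratio of 0.003 to 0.23. With TPM rescaled by the TMM factors it was lower in 4 of 8, so no direction can be given for Slc2a1. Exons of Gm12868 on the other strand cover 3.68% of its exon bases, and reads there could not be assigned without strand. In TPM Slco1a4 had 53.3 ± 10.3 in wild-type cortex, 49.3 ± 4.49 in wild-type cerebellum, 51.1 ± 5.62 in A391T cortex and 50.9 ± 3.77 in A391T cerebellum (SD, n = 4 each). Slco1a4 (ENSMUSG00000030237; chromosome 6, 141753961 to 141804720, minus strand) was near the threshold in wild-type mice, with -0.26 (standard error 0.12, adjusted p = 0.078 by edgeR) and -0.11 (standard error 0.09, adjusted p = 0.31) in A391T mice. The levels of Abcb1a, in the same order of groups, were 23.3 ± 3.36, 26.0 ± 2.59, 24.5 ± 2.34 and 23.3 ± 5.31 TPM (SD, n = 4 each), the last with CBLM445 at 15.7 TPM. Abcb1a (ENSMUSG00000040584; chromosome 5, 8660077 to 8748575, plus strand) had 0.01 (standard error 0.10, adjusted p = 0.95 by edgeR) and -0.19 (standard error 0.14, adjusted p = 0.26). Without CBLM445 the A391T value of Abcb1a was -0.06. By TPM Slco1a4 was lower in cerebellum in 5 of 8 mice and Abcb1a in 3 of 8, and after rescaling by the TMM factors in 8 and 5 of 8.

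Abcb1a and Slco1a4 share part of their sequence with related genes. Of the 50-base words in the annotated transcripts of Abcb1a, the read length of the study, 15.5% also occur in Abcb1b, and reads from there align to both genes. Abcb1b had 0.840 to 3.30 TPM over the 16 libraries, against 15.7 to 29.5 TPM for Abcb1a. It was lower in cerebellum, at -1.08 on the log2 scale (standard error 0.22, adjusted p = 0.0011 by edgeR) in wild-type and -1.21 (standard error 0.13) in A391T mice. For Slco1a4 the shared part was 2.68% of words, nearly all with Slco1a5, which stayed at or under 0.511 TPM as a group mean. The paralogs Slc2a4 and Mfsd2b, at low levels, were higher in cerebellum, by 2.63 and 1.41 on the log2 scale in A391T mice, and Slc2a3, the neuronal glucose transporter, was at -0.20 there (adjusted p = 0.018 by edgeR). The other 8 members shared at most 0.134% of their words with another gene.

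Tek (ENSMUSG00000006386; chromosome 4, 94405980 to 94541667, plus strand) and Vwf (ENSMUSG00000001930; chromosome 6, 125496792 to 125636697, plus strand) did not pass the test between regions. The levels of Tek were 14.9 ± 2.23 TPM in wild-type cortex, 13.9 ± 2.76 TPM in wild-type cerebellum, 14.2 ± 1.32 TPM in A391T cortex and 14.2 ± 1.23 TPM in A391T cerebellum (SD, n = 4 each). Tek was at -0.26 on the log2 scale (standard error 0.14, adjusted p = 0.12 by edgeR) in wild-type and -0.10 (standard error 0.10, adjusted p = 0.38) in A391T mice. Vwf had -0.05 (standard error 0.12, adjusted p = 0.72 by edgeR) and -0.14 (standard error 0.13, adjusted p = 0.36). Vwf was lower in cerebellum in 4 of 8 mice by TPM and in 6 of 8 after rescaling by the TMM factors, and Tek in 6 and 7 of 8.

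The promoters of the 2 genes called in both genotypes, and of Slc2a1 and Cldn5, the genes with the highest levels, are shown so that their sequences can be set side by side. Each is the 250 bases before the gene's start on its own strand, from RefSeq on GRCm38.p6, which is a later build than that of the files. Capitals mark AGGAAG, the core of an ETS factor motif, ATTGTT, the core of a SOX factor motif, and GTAAACA, a forkhead motif, each searched on both strands. Factors of these families are known to act in endothelial genes.
Mfsd2a (chr4:122961189-122961438, minus strand): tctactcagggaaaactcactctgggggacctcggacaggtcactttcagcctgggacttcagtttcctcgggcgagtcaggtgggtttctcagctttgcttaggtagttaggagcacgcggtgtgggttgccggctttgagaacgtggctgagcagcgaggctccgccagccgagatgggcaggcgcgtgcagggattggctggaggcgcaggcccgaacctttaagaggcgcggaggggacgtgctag
Flt1 (chr5:147726012-147726261, minus strand): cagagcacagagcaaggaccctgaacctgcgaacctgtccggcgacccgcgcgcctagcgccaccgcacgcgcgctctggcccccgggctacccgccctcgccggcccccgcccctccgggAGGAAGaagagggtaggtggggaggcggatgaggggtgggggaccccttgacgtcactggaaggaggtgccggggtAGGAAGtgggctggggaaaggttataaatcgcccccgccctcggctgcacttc
Slc2a1 (chr4:119108495-119108744, plus strand): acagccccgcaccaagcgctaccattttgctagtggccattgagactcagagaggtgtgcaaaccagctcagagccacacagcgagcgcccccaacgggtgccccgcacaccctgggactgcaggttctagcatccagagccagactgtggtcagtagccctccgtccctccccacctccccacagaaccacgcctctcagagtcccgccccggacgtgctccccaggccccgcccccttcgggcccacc
Cldn5 (chr16:18776597-18776846, plus strand): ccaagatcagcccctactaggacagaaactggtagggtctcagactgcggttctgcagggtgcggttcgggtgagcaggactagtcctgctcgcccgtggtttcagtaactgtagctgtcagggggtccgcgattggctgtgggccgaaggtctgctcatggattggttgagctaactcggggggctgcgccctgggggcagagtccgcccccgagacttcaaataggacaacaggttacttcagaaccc
The Flt1 window holds AGGAAG at 129 and at 53 bases before the start, and the windows of Mfsd2a, Slc2a1 and Cldn5 hold none of the 3 motifs. RefSeq promoters were found for 7 of the 10 genes, and 3 of the 7 held AGGAAG (Flt1, Slco1a4 and Abcb1a), 2 held ATTGTT (Tek and Slco1a4) and 1 held GTAAACA (Abcb1a). Among all 32851 promoters of the same length, 29.5% held AGGAAG, 9.42% held ATTGTT and 3.17% held GTAAACA. The Flt1 window was 70.4% G and C, that of Mfsd2a 61.6%, that of Slc2a1 66.4% and that of Cldn5 59.6%.

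A391T mice were then compared with wild-type mice within each region, which asks whether the barrier genes differ with the Slc39a8 genotype. No member was called. In cortex edgeR's quasi-likelihood test called 0.0126% of 15815 genes (Plin4 and Klf10, neither of them a member), and 2 of the 10 members had an unadjusted p under 0.05, against 4.73% of genes tested. In cerebellum it called 0% of 15668 genes, and 1 of the 10 members had an unadjusted p under 0.05, against 8.55% of genes tested. DESeq2 called no member in cortex and 1 in cerebellum, Vwf, beside 0.0885% and 0.236% of genes tested. The median log2 fold change of the members, A391T over wild type, was -0.10 in cortex and -0.13 in cerebellum, against 0.00 and 0.01 over all genes. The middle values in cerebellum were those of Cdh5 and Abcb1a, at -0.15 and -0.12. Without CBLM445 they were those of Cldn5 and Cdh5, at -0.09 and -0.03, so the cerebellum median rested in part on that library.

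**Figure D3:**
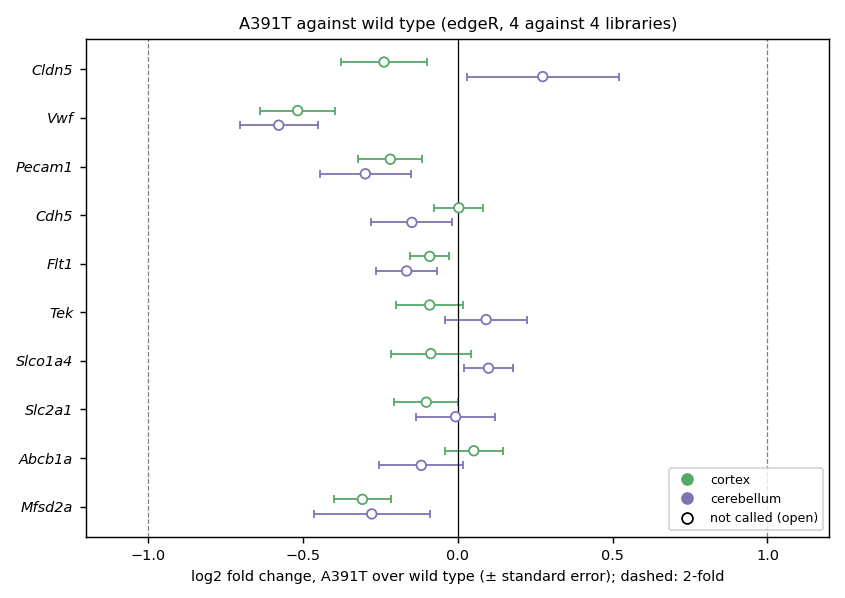
Points give the log2 fold change of each gene, A391T over wild type, in cortex and in cerebellum, with bars for ± 1 standard error. All points are open, since no adjusted p was under 0.05, and Vwf lies lowest in both regions, at -0.52 in cortex and -0.58 in cerebellum.

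Vwf was the member with the lowest level in A391T mice relative to wild type. In cortex it measured 6.17, 8.41, 9.34 and 6.85 TPM in wild-type mice and 4.64, 5.27, 6.06 and 5.78 TPM in A391T mice. In cerebellum it measured 6.74, 8.31, 8.81 and 9.04 TPM in wild-type mice and 4.70, 4.56, 5.34 and 6.65 TPM in A391T mice. Under the names of the count files the groups did not overlap in either region. Vwf was the only member of which this held in both regions. In cortex alone it also held for Mfsd2a, with 44.5 to 54.7 TPM in wild-type and 36.1 to 44.0 TPM in A391T mice. Of all genes tested, 3.24% did not overlap in cortex, 7.83% in cerebellum, and 0.3% in both regions with the same direction. The log2 fold change was -0.52 (standard error 0.12, unadjusted p = 0.0012, adjusted p = 0.78 by edgeR) in cortex and -0.58 (standard error 0.13, unadjusted p = 0.0011, adjusted p = 0.53) in cerebellum.

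The Vwf difference depended on the test and on the names of the libraries. In cerebellum the adjusted p was 0.039 by edgeR's exact test, which called 0.109% of genes, and 0.014 by DESeq2. In cortex it was 0.055 and 0.070. With the names of the RPKM table the log2 fold change was -0.20 in cortex and -0.23 in cerebellum, with adjusted p of 0.88 and 0.63 by edgeR's quasi-likelihood test. With only the 4 mice named alike in both sources, it was -0.73 and -0.82, with adjusted p of 0.83 and 0.47. Under the table's names the Vwf groups overlapped in both regions. The members that did not overlap were then Cldn5 in cortex, and Cdh5, Flt1, Tek and Abcb1a in cerebellum, beside 3.04% and 6.9% of genes tested. The cortex and cerebellum of a mouse are not independent, so the 2 regions are not 2 separate observations of the genotype.

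Other endothelial and platelet genes are given beside Vwf, since platelets too hold von Willebrand factor. The 29 other pan-endothelial genes summed to 644 to 884 TPM in wild-type and 578 to 678 TPM in A391T cortex, and to 498 to 653 TPM in wild-type and 351 to 504 TPM in A391T cerebellum. The 6 platelet markers summed to 31.2 to 41.5 TPM in wild-type and 33.6 to 40.7 TPM in A391T cortex, and to 22.2 to 25.8 TPM in wild-type and 18.3 to 42.6 TPM in A391T cerebellum. The 42.6 TPM was that of CBLM445, and the other 3 libraries of its group had at most 25.4 TPM. Exons of Sept5 on the same strand cover 31.5% of the exon bases of Gp1bb, 1 of these markers. Only 3 of the 6 platelet markers passed the filter for testing. With the table's names the pan-endothelial sums were 578 to 884 TPM in wild-type and 598 to 664 TPM in A391T cortex, and 503 to 653 and 351 to 556 TPM in cerebellum. The platelet sums were then 38.0 to 41.5 TPM in wild-type and 31.2 to 40.7 TPM in A391T cortex, and 18.3 to 25.0 and 23.7 to 42.6 TPM in cerebellum. The pan-endothelial sums thus overlapped between genotypes in both regions under either set of names. Their part in the Vwf values was not tested.

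Of the other members, Mfsd2a was at -0.31 on the log2 scale (standard error 0.09, unadjusted p = 0.0058, adjusted p = 0.97 by edgeR) in cortex and -0.28 (standard error 0.19, adjusted p = 0.56) in cerebellum. With the names of the RPKM table its values were -0.16 and -0.03, and without CBLM445 the cerebellum value was -0.13. Pecam1 had -0.22 (standard error 0.10) in cortex and -0.30 (standard error 0.15) in cerebellum, with adjusted p of 1.00 and 0.53 by edgeR. The remaining 7 members ran from -0.24 to 0.05 in cortex and from -0.17 to 0.27 in cerebellum. The highest of these, Cldn5 in cerebellum, included CBLM445 and was at -0.09 without it. The cerebellum value of Pecam1 was -0.18 without that library. Under the table's names no member was called either, and the 8 members other than Vwf and Mfsd2a ran from -0.32 for Cldn5 to 0.06 for Slc2a1 in cortex, and from -0.27 for Abcb1a and Tek to 0.22 for Slc2a1 in cerebellum. Of the 10 members, 2 in cortex and 3 in cerebellum then had an unadjusted p under 0.05, beside 4.72% and 7.82% of all genes, and all were lower in A391T mice. These were Cldn5 and Tek in cortex and Abcb1a, Flt1 and Tek in cerebellum, so different members stood out under the 2 sets of names.

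The interaction of region and genotype, which tests whether the region difference itself differs between genotypes, gave no call among the 10 members and 0% of 16589 genes by edgeR's quasi-likelihood test. None of the 10 had an unadjusted p under 0.05, against 4.85% of all genes, and DESeq2 called no member either. The largest value was that of Cldn5, 0.50 (standard error 0.30, adjusted p = 0.77 by edgeR), and it was 0.15 without CBLM445. Under the table's names 0 genes were called, Cldn5 was at 0.52 (adjusted p = 0.51 by edgeR), and none of the 10 had an unadjusted p under 0.05, against 9.51% of all genes.

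Within groups the 10 genes did not vary as a unit. CBLM445 had log2 deviations from its group mean of 0.82 for Cldn5, -0.43 for Pecam1, -0.42 for Cdh5, -0.42 for Abcb1a and -0.53 for Mfsd2a. Cldn5 was thus 19.4 times the level of Cdh5 in that library, against 5.47 to 11.4 times in the other 15. The 11.4 belonged to the wild-type cortex library CTX480, where Cldn5 deviated by 0.45 and Slco1a4 by 0.40, while Cdh5 deviated by -0.13. In the same libraries the summed level of 7 blood cell genes was 595 TPM for CBLM445 and 440 TPM for CTX480, each the highest of its group. In CBLM462, CBLM461 and CBLM480 this sum was 506, 487 and 441 TPM, with Cldn5 at 5.92, 6.48 and 6.94 times Cdh5. Deviations correlated with transcript length across genes at a Spearman rho of -0.25 in CBLM445 and of -0.46 in CTX480, against -0.29 to 0.43 elsewhere. Their correlation with GC content was 0.12 and -0.16, against -0.29 to 0.28 elsewhere. The part of blood content, length or GC content in these deviations was not tested.

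**Figure D4:**
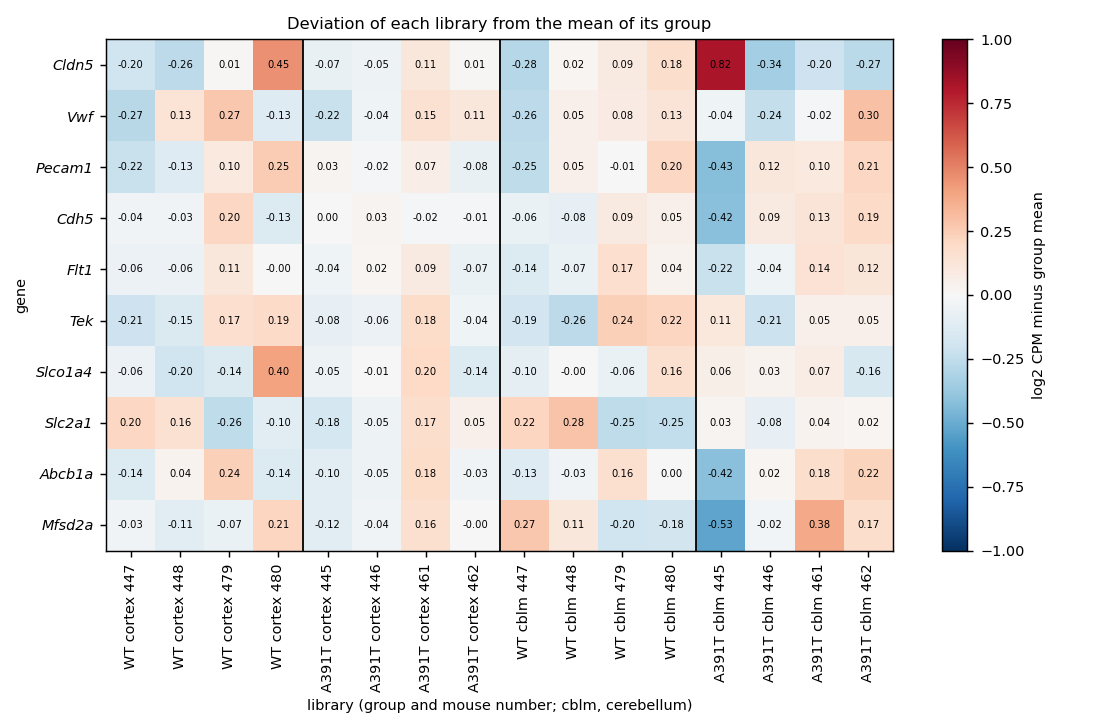
Each cell gives the log2 CPM of 1 gene (rows) in 1 library (columns, by group and mouse) minus the mean of its group of 4, printed and coloured from blue for lower to red for higher. The column of CBLM445 (A391T cerebellum) holds the highest cell, 0.82 for Cldn5, beside negative cells down to -0.53 for Mfsd2a.

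Over the 16 libraries, with each group mean removed, Flt1 varied most like the rest, with a Pearson r of 0.79 to the mean of the other 9 members. Pecam1 had 0.71 and Abcb1a 0.69. Slc2a1 had -0.44 and Cldn5 -0.25. Without CBLM445, r for Cldn5 was 0.33 and r for Slc2a1 was -0.47. Tek then went from 0.46 to 0.68, above Pecam1 at 0.64 and Abcb1a at 0.62, with Flt1 still highest at 0.74. The closest pairs were Flt1 with Abcb1a and Cdh5 with Abcb1a, each at 0.89. Both values include CBLM445, where Abcb1a and Cdh5 each deviated by -0.42 and Flt1 by -0.22, and no pair value without it is given. The points share libraries, depth and group means, and the correlations are given as descriptions.

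Among 15349 genes with a mean of at least 1 TPM, the non-member genes whose deviations were most like the mean of the 10 included Tgfbr2 with a Pearson r of 0.86, Cx3cr1 and Adamts1 with 0.84 each, Fubp1, Fam149b, Gm17732 and Gm15696 with 0.83 each, and Dab2 and Micalcl with 0.82 each, over 16 libraries. Of these, Cx3cr1, a chemokine receptor of microglia, was on one of the marker lists, and no listed endothelial gene was among them. Without CBLM445 these 9 correlations ran from 0.76 to 0.85.

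Some members kept their level in a mouse across the 2 regions. Slc2a1 measured 181, 180, 136 and 147 TPM in wild-type cortex and 199, 206, 148 and 148 TPM in the cerebellum of the same mice. In A391T mice it measured 134, 148, 172 and 155 TPM in cortex and 158, 163, 178 and 176 TPM in cerebellum. The mice with high Slc2a1 in cortex thus also had high Slc2a1 in cerebellum. Over the 8 mice Pearson's r was 0.91 (exact permutation p = 0.0020, adjusted p = 0.014 over the 10 members) and Spearman's rho 0.88 (exact permutation p = 0.0072, adjusted p = 0.036). Leaving out the 2 mice farthest from the median in cortex gave r = 0.78. With the mean of the mice named alike and that of the mice named differently removed, r was 0.65, so the relation rested in part on the difference between those sets.

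For Vwf r was 0.84 (exact permutation p = 0.0073, adjusted p = 0.024) and rho 0.88 (exact permutation p = 0.0072, adjusted p = 0.036), with r = 0.86 without the 2 farthest mice. With each genotype's mean removed, r was 0.91 for Slc2a1 and 0.55 for Vwf, and under the table's names 0.94 and 0.82. With the means of the mice named alike and differently removed, r was 0.84 for Vwf and 0.82 for Slco1a4. For Slco1a4 r was 0.84 (exact permutation p = 0.0028, adjusted p = 0.014) and rho 0.74 (exact permutation p = 0.046, adjusted p = 0.11), but r fell to 0.48 without the mice of CTX480 and CTX461. Tek had r = 0.81 (exact permutation p = 0.025, adjusted p = 0.061) and rho 0.79 (exact permutation p = 0.028, adjusted p = 0.093), with r = 0.58 without its 2 farthest mice, those of CTX479 and CTX480. With each genotype's mean removed r for Tek was 0.85, and 0.38 under the table's names. The other 6 members had r from 0.02 for Cldn5 to 0.69 for Flt1, with adjusted exact permutation p-values from 0.13 to 0.95. Over 16105 genes with a mean of at least 1 TPM the median r was -0.02, with 0.64 at the 95th percentile. These relations were computed after the values had been seen.

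**Figure D5:**
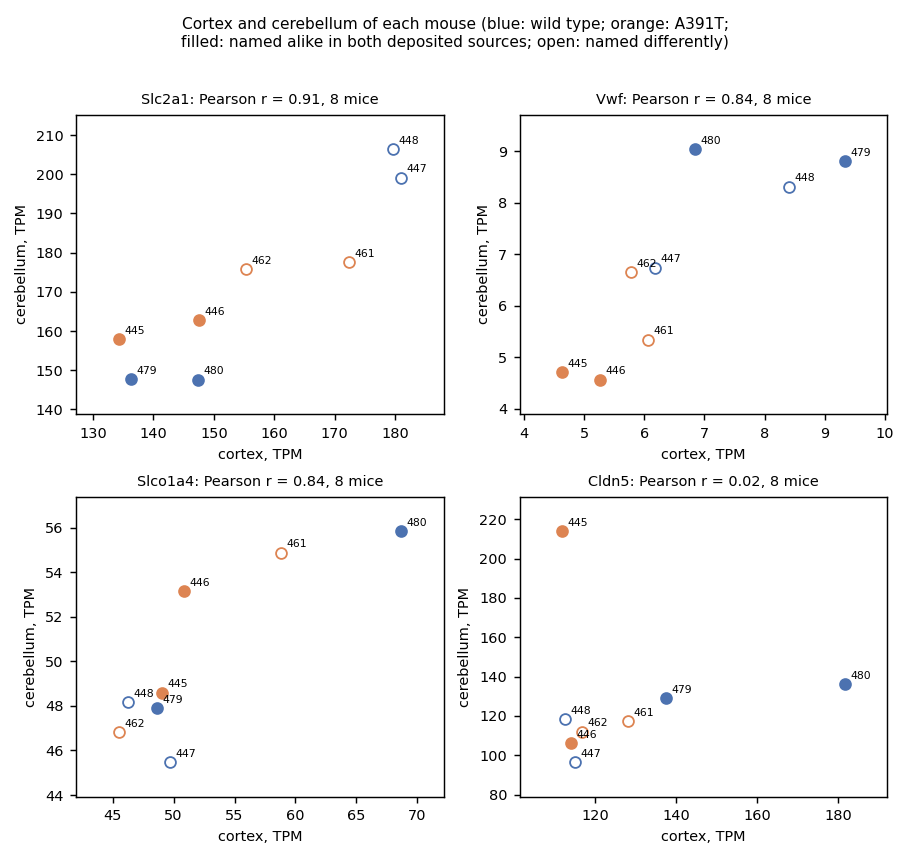
Each panel plots cerebellum against cortex level in TPM for 1 gene, with 1 point per mouse, labelled by its number. Slc2a1 and Vwf rise together from the lower left to the upper right, Slco1a4 does so mainly through the mice of CTX480 and CTX461, and Cldn5 shows no such order, with the mouse of CBLM445 alone at 214 TPM in cerebellum.

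The Slc2a1 levels also separated the mice by their naming. Cortex levels ran from 134 to 148 TPM in the 4 mice named alike in both sources, and cerebellum levels from 148 to 163 TPM. Those named differently ranged over 155 to 181 TPM in cortex and 176 to 206 TPM in cerebellum. These sets did not overlap in either region, and each holds 2 wild-type and 2 A391T mice under either set of names. Of all genes tested, 1.71% did not overlap between the sets in cortex, 2.96% in cerebellum, and 0.0533% in both regions with the same direction. For the other 9 members the sets overlapped in cortex, and in cerebellum 8 of them overlapped while Mfsd2a was separated by little, with at most 28.4 TPM in mice named alike and at least 28.9 TPM in the others.

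Other endothelial genes were counted from lists of known genes. Of 29 other pan-endothelial genes, 8 were called in wild-type and 9 in A391T mice, all lower in cerebellum, beside the 67.8% and 62.8% of all genes called and the 33.1% and 31.3% called lower. Their median log2 fold change was -0.19 and -0.24. Cd34, a sialomucin of endothelial and progenitor cells, was at -2.63 (standard error 0.09) in wild-type mice, from 140 TPM in cortex to 25.1 TPM in cerebellum. Egfl7, a secreted endothelial factor, was at -0.90 (standard error 0.10) and Sox7, a transcription factor, at -0.75 (standard error 0.17). Exons of other genes cover 11.2% of those of Egfl7 and 5.65% of those of Cd34. Between genotypes no gene of this list was called, but 8 of 29 in cortex had an unadjusted p under 0.05, all lower in A391T mice, and 6 of 29 in cerebellum, 5 of them lower, beside the 4.73% and 8.55% of all genes given above. Under the table's names these counts were 7 in cortex, all lower, and 7 in cerebellum, 5 of them lower, with no gene called. Sox18, a transcription factor of endothelial development named here after its values were seen, had -0.57 (standard error 0.10, adjusted p = 0.39 by edgeR) in cortex and -0.42 (standard error 0.15, adjusted p = 0.53) in cerebellum, but -0.13 and 0.01 under the table's names.

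Of 13 junction genes, 7 were higher and 3 lower in cerebellum in wild-type mice, and 7 higher and 2 lower in A391T mice. These counts and those of the lists that follow stand beside the 67.8% of all genes called in wild-type and 62.8% in A391T mice. Marveld2, or tricellulin, rose from 1.32 to 21.4 TPM in wild-type mice, by 3.85 on the log2 scale (standard error 0.13). Ocln, or occludin, rose by 1.21 (standard error 0.11) and Cgn, or cingulin, by 1.21 (standard error 0.13), while Tjp1 was at -0.38 (standard error 0.10) and Ctnnd1 at -0.31 (standard error 0.07). These genes are also expressed in epithelia such as the choroid plexus, whose 10 marker genes summed to 54.8 to 8178 TPM in cerebellum and 9.96 to 53.2 TPM in cortex libraries. The lowest cerebellum libraries were CBLM462 with 54.8 TPM and CBLM479 with 56.1 TPM, and the other 6 had at least 2420 TPM. All 9 of these markers tested were higher in cerebellum in both genotypes. Over the wild-type cerebellum libraries Marveld2 ran from 20.3 to 22.3 TPM, Ocln from 16.3 to 19.1 TPM and Cgn from 5.70 to 7.63 TPM. In A391T cerebellum they ran from 17.8 to 22.3, 17.4 to 22.0 and 4.83 to 5.81 TPM. The part of the choroid plexus markers in the junction genes was not tested. Of 21 barrier transporters and receptors, 3 were higher and 10 lower in wild-type cerebellum, and 2 higher and 9 lower in A391T cerebellum. Among the largest were Slc39a10, a zinc transporter, at -2.08 (standard error 0.08) and Slco2b1 at -0.94 (standard error 0.09), with Ager at 1.07 (standard error 0.24), all in wild-type mice.

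Of 20 genes of the Wnt pathway that induces the barrier, 8 were higher and 5 lower in wild-type cerebellum, and 8 higher and 6 lower in A391T cerebellum. The ligands went opposite ways. In A391T mice Wnt7a rose from 14.3 to 89.6 TPM (log2 fold change 2.55, standard error 0.07), while Wnt7b was lower, 49.1 TPM in cortex and 13.1 TPM in cerebellum (-2.02, standard error 0.12), and in wild-type mice they were at 2.87 and -2.13. In wild-type mice the receptor gene Fzd4 rose by 0.67 (standard error 0.22). Tspan12, whose product assists the Fzd4 receptor, was at -0.52 (standard error 0.12), and Tcf7, a nuclear factor of the pathway, at -1.01 (standard error 0.13). Of 13 VEGF and angiopoietin ligands and receptors, 3 were higher and 2 lower in wild-type mice, and 3 higher and 3 lower in A391T mice. Angpt1, a ligand of Tek, and Vegfa, a ligand of Flt1, were higher in wild-type cerebellum, at 1.02 (standard error 0.15) and 0.51 (standard error 0.07), and the co-receptors Nrp1 at -1.47 (standard error 0.12) and Nrp2 at -0.86 (standard error 0.16) were lower.

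Of 6 transcytosis and fenestration genes, 2 were higher and 1 lower in each genotype. Plvap, which forms the diaphragms of fenestrae, rose from 21.5 to 43.2 TPM in A391T mice (log2 fold change 0.90, standard error 0.09), and in wild-type mice it was at 1.10 (standard error 0.10). Ehd4 rose by 0.48 (standard error 0.07) and Cav2, a caveolin, was at -1.77 (standard error 0.09) in wild-type mice. Plvap ran from 46.9 to 49.4 TPM over wild-type and from 40.4 to 46.6 TPM over A391T cerebellum libraries. The part of the choroid plexus markers given above in the Plvap values was not tested. Of 11 arterial genes 1 was higher and 4 lower in wild-type mice, with 1 and 1 in A391T mice, led by Unc5b at 2.06 (standard error 0.09) and Efnb2 at -1.13 (standard error 0.08). Of the venous genes, 3 of 8 tested were higher and 1 lower in wild-type mice, and 4 of 7 higher and 2 lower in A391T mice, with Darc (also named Ackr1) at 1.10 (standard error 0.11), Il1r1 at 0.55 (standard error 0.11), Nr2f2 at 0.55 (standard error 0.14) and Vcam1 at -0.84 (standard error 0.11). Of 12 basement membrane genes, 5 were higher and 4 lower in wild-type mice, and 4 and 6 in A391T mice. Col4a2, Agrn and Col4a1 were at -1.47, -1.06 and -0.98, and Nid1, Lamb1 and Lama2 at 1.28, 1.17 and 0.78.

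Markers of neighbouring cells were counted the same way. Of 11 pericyte markers none was higher and 2 were lower in each genotype, with a median of -0.12 and -0.09, and Cspg4 at -0.99 (standard error 0.14). Of 6 smooth muscle markers, 1 was higher and 2 lower in wild-type and 1 and 1 in A391T mice, Des at 1.43 and Acta2 at -0.54. Of 9 perivascular and meningeal fibroblast markers, 7 were higher in wild-type and 6 in A391T cerebellum, among them Dcn at 1.22, Col3a1 at 1.13 and Igf2 at 0.98. All 7 microglia markers were lower in cerebellum in both genotypes, with a median of -1.93 and -1.95. Of 6 blood cell markers tested, 1 was higher in wild-type and 2 in A391T cerebellum, Slc4a1 at 2.68 (standard error 0.35), and of 3 platelet markers tested, 2 and 1 were lower, Itga2b at -0.64. Of 8 astrocyte markers 5 were higher and 1 lower in wild-type and 6 and 1 in A391T mice, and of 9 neuron markers 4 were higher and 4 lower in wild-type and 4 and 5 in A391T mice.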

How the data were processed

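Per the study's methods, RNA was polyA-selected, made into directional libraries and read at 50 bases. The authors mapped the reads with STAR to mm9, counted them per Ensembl gene with HTSeq, and deposited 1 count file per library, whole-number counts without normalization and without regard to strand. They also deposited RPKM values (reads scaled to gene length and depth) in 1 table, which here served for its gene lengths and names and its own library names.

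TPM was computed from the counts and these lengths. For each comparison of 4 libraries against 4, edgeR 4.0.16 (R 4.3.3, limma 3.58.1) filtered genes with filterByExpr, scaled by TMM and ran its quasi-likelihood test, with p adjusted by Benjamini-Hochberg over all genes tested. The interaction was fitted over all 16 libraries. The fits were first tested on simulated counts. Alternatives were edgeR's exact test, DESeq2 1.42.0, RLE factors, library totals, 2 other filters, 1 model for all 16 libraries, the table's names, only mice named alike, the mouse as a block, and each library left out. Correlations used Python 3.11.15 and scipy 1.17.1, with all 40320 pairings of 8 mice. The titles tie cortex and cerebellum to 1 mouse. Deviations of the 2 regions of a mouse correlated across genes at -0.10 to 0.10, with a median of -0.05 over 8 mice, against -0.14 to 0.13 between mice of a genotype. These correlations did not set the pairs apart. The pairing rests on the titles and on the study's account, which describes taking both regions from 1 brain.

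The members and lists were chosen with earlier results of these data known. Named genes are all members, Slc39a8, paralogs that could share reads and, of each list, up to 3 genes per direction with the largest wild-type difference among those called in both genotypes with the same sign. A few genes that this rule names are not reported here. Rows that name no gene stayed out: reads on no gene (10.2% to 13.2% per library), on several genes (2.20% to 2.75%) or aligned more than once (8.41% to 12.1%). P-values measure the spread between mice that may be littermates. In the main region fits the cortex and cerebellum of a mouse entered as independent libraries, and only the fits with the block used their pairing.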

Additional observations from a re-analysis of the deposited data

Results flagged for a closer look

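Dixon's test for 1 outlying library among 4 was applied to the TPM of the 10 genes in the 4 groups, 40 sets in all, and marked 3 libraries. Chance alone marks about 1 set in 20. Cldn5 in the A391T cerebellum library CBLM445 was at 214 TPM, far above the other 3 libraries at 106 to 117 TPM. Slco1a4 in the wild-type cortex library CTX480 was at 68.7 TPM, above the others at 46.3 to 49.7 TPM. Tek in the A391T cortex library CTX461 was at 16.1 TPM, above the others at 13.4 to 13.7 TPM. In CBLM445 and CTX480 other members deviated too. No member's region difference was found to differ between genotypes, since none of the 10 was called in the interaction.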

How the results depend on the processing

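Mfsd2a was called lower in cerebellum in both genotypes under every alternative run except those that also ask for a 2-fold change, which called 0 members. The count of members called in wild-type mice, 2, became 4 with DESeq2, 3 with edgeR's exact test, 3 with no filter and 3 under the RPKM table's names. It became 1 with library totals and 1 with only the mice named alike. With the mouse as a block (paired fit) it was 5, and 4 with that block under the table's names (chosen after seeing the data). It ran from 2 to 4 with 1 library left out. Of all genes, the main fit called 67.8%, DESeq2 67.1%, the exact test 67.9% and the table's names 66.4%. The block called 65.9%, and 65.1% under the table's names. No filter called 11695 of 25831 genes, library totals 11200 of 16040 and only the mice named alike 7724 of 16260. With 1 library left out, 10244 to 11282 of 16233 to 16275 genes were called. In A391T mice the count of members called became 0 with the 2-fold change, 1 with library totals and 2 to 3 with 1 library left out. The 3 were those without CBLM445. Library totals called 10682 of 16005 genes there, and the fit without CBLM445 called 11797 of 16226. In cerebellum the genotype count of 0 became 1, Vwf, with edgeR's exact test and 1 with DESeq2, which called 0.109% and 0.236% of all genes. The block changed no other call, and the cortex genotype and interaction counts stayed at 0 in every alternative run.

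The reversals were of members not called. In wild-type mice library totals gave 0.069 for Vwf, 0.050 for Cdh5 and 0.095 for Slc2a1, and Abcb1a was at -0.014 with DESeq2, -0.014 with RLE factors, -0.018 under the table's names and -0.012 with the block under those names. With 1 library left out, Vwf ran from -0.14 to 0.039, Slc2a1 from -0.11 to 0.061 and Abcb1a from -0.068 to 0.088. In A391T mice library totals gave 0.031 for Tek and 0.026 for Slco1a4. With 1 library left out, Cldn5 ran from -0.21 (called) to 0.27 and Slc2a1 from -0.019 to 0.095. Why these values moved was not tested. With 4 mice a group and the library names of 4 mice in doubt, genotype differences of the size seen for Vwf could not be settled.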
